A study of Mus musculus with 36 samples.

Results

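The miRNA pool of the prostate was compared between mice that lacked Elac2 in the prostate and wild-type mice at 10 weeks of age, in 6 of the 36 libraries of the study. The study sequenced miRNAs from the ventral and lateral prostate lobes of 3 lines, with the genotypes ELAC2+/+ (WT), ELAC2-/- (KO) and ELAC2A537T (A537T), with and without the TRAMP transgene and at 10 and 30 weeks, in 12 groups of 3 libraries. The comparison asked which miRNAs differ once Elac2 is lost, before any TRAMP transgene is added. The KO group was libraries 31, 32 and 33 and the WT group was libraries 28, 29 and 30, all from male mice of strain C56NL/6N without TRAMP. The knockout was driven by Pb-Cre, in which the probasin promoter directs Cre recombinase to prostate epithelium, so other cells in the lobes would keep the gene. WT mice were matched littermates, and whether they carried Cre is not given in the sources used here. The table listed 1963 miRNAs, of which 656 had no read in the 6 libraries and 561 reached a mean normalised count of at least 10, and these 561 are described here.

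ELAC2 is the ribonuclease that removes the 3′ trailer of precursor transfer RNAs in the nucleus and the mitochondria. MiRNAs are short RNAs cut from hairpin precursors, and each guides a silencing complex to messenger RNAs, mainly through the bases near its 5′ end that are called the seed. A hairpin can release a miRNA from either arm, named 5p and 3p. Because bulk tissue was sequenced, fewer cells of a type and less of a miRNA per cell cannot be told apart in any result below. Some miRNAs are near markers of a cell type: miR-1a, miR-133 and miR-206 of striated muscle, miR-143 and miR-145a of smooth muscle and stroma, and the miR-200 family of epithelium.

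The mature sequences of the miRNAs on which the comparison turns are given 5′ to 3′ from RefSeq (GRCm38.p6), with the seed, bases 2 to 8, in capitals. The first set is from skeletal and cardiac muscle, the list with the lowest median fold change in KO. Mir206 (chr1:20679055-20679076) and Mir133b (chr1:20682834-20682855) lie on the plus strand in exons of the long noncoding RNA gene Gm28653, and Mir208b and Mir499 lie in introns of the slow myosin genes Myh7 and Myh7b.
miR-206-3p: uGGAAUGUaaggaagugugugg
miR-133b-3p: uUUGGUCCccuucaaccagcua
miR-499-5p: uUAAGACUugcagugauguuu
miR-208b-3p: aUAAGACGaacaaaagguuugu
The second set shows 3 members of the miR-378 group, which share the 14 bases cuuggagucagaag and have 3 different seeds.
miR-378b: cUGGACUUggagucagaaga
miR-378c: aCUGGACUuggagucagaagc
miR-378d: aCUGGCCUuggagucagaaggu
The third set holds miRNAs outside the muscle lists that were lower in the KO libraries, from unrelated seeds. Mir181a-2 (chr2:38852785-38852806) lies opposite an intron of Nr6a1, Mir149 (chr1:92850381-92850403) in an intron of Gpc1, Mir504 (chrX:59097705-59097726) in an intron of Fgf13, and Mir299a (chr12:109710644-109710665) between genes. MiR-365-3p comes from 2 loci, Mir365-1 on chromosome 16 and Mir365-2 on chromosome 11.
miR-181a-2-3p: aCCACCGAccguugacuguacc
miR-365-3p: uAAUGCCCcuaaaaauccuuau
miR-299a-5p: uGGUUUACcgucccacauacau
miR-149-5p: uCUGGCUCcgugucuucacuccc
miR-504-5p: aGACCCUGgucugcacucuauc
The fourth set was higher in the KO libraries and holds 2 pairs with a shared seed, which differ by 1 base within each pair. Mir19a (chr14:115044048-115044070) lies in an exon of Mir17hg, Mir10a (chr11:96317186-96317208) between genes and Mir10b (chr2:74726074-74726096) in an intron of Hoxd3 and Hoxd4.
miR-19a-3p: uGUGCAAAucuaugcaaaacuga
miR-19b-3p: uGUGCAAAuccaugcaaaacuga
miR-10a-5p: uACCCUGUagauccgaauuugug
miR-10b-5p: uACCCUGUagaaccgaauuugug

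Totals ran from 12422946 to 18574473 recovered reads per library, and the 10 most abundant miRNAs took 64.4% to 70.3% of them. The libraries did not separate cleanly by genotype. On the first principal component, which held 71.1% of the variance, WT libraries 30, 29 and 28 stood at 25.2, 8.73 and -3.00 and KO libraries 32, 31 and 33 at -5.73, -11.9 and -13.3, so that library 30 stood farthest apart and library 28 lay next to the KO libraries. The Spearman correlation across the 561 miRNAs was 0.987 between WT library 28 and KO library 32, above its 0.968 with WT library 29 and its 0.924 with WT library 30. Because the columns carry no genotype and Elac2 messenger RNA was not measured here, the genotype of each library rests on the name of its table.

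No miRNA passed the test for all 561. At an unadjusted limma p more miRNAs were lower than higher in KO, but equal numbers lay wholly above and wholly below WT. With limma, 0 miRNAs (0%) had an adjusted p under 0.05, and the smallest was 0.213. At an unadjusted limma p under 0.05 there were 33 miRNAs higher in KO (5.88% of those tested) and 64 lower (11.4%). All 3 KO libraries lay above all 3 WT libraries for 86 miRNAs (15.3%) and below them for another 86 (15.3%). On the recovered reads edgeR's quasi-likelihood test called 0 (0%), with 93 at an unadjusted p under 0.05, whereas DESeq2 called 2 higher (0.357%) and 28 lower (4.99%) at an adjusted p under 0.05, 11 of the 28 from the muscle and muscle-enriched lists. One library on each side decided the limma count. Without WT library 28, 91 miRNAs passed (16.2%), 42 higher and 49 lower in KO, 24 of them among DESeq2's 30. Without KO library 32, 9 passed (1.60%), namely the 8 measured entries of the skeletal muscle list and miR-653-5p, which was named after its values were seen.

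**Figure D1:**
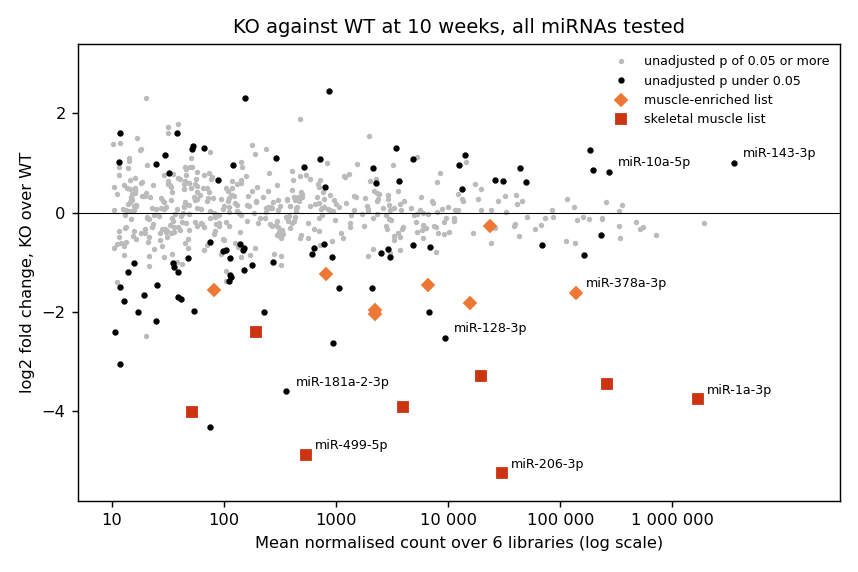
Log2 fold change of KO over WT (vertical axis) against the mean normalised count over the 6 libraries (horizontal axis, log scale) for the 561 miRNAs tested, 1 point each, with the skeletal muscle list as red squares and the muscle-enriched list as orange diamonds. The 8 skeletal muscle entries lie between -5.24 and -2.40, and miR-181a-2-3p at -3.60 is among the lowest of the others.

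MiRNAs of skeletal muscle took far less of the KO libraries than of the WT libraries. They made up 9.74%, 19.05% and 30.7% of the reads in WT libraries 28, 29 and 30, and 0.773%, 6.51% and 0.736% in KO libraries 31, 32 and 33. The groups did not overlap, but KO library 32 lay closer to WT library 28 than to the other KO libraries. Counting error was small beside this spread, with a 95% Wilson interval of 0.732% to 0.740% for library 33. The KO mean was 2.67% ± 3.32 (SD, n = 3), against a WT mean of 19.8% ± 10.5 (SD, n = 3), a difference of -17.2 percentage points with a two-sided exact permutation p of 0.1, the smallest that 3 against 3 can give. In mice of 30 weeks the share was 0.389% to 0.449% in WT and 0.502% to 0.821% in KO, so all 6 libraries of 30 weeks were low, and the order of the groups there was the opposite. The 3 A537T libraries of 10 weeks held 13.7%, 8.36% and 3.72%.

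**Figure D2:**
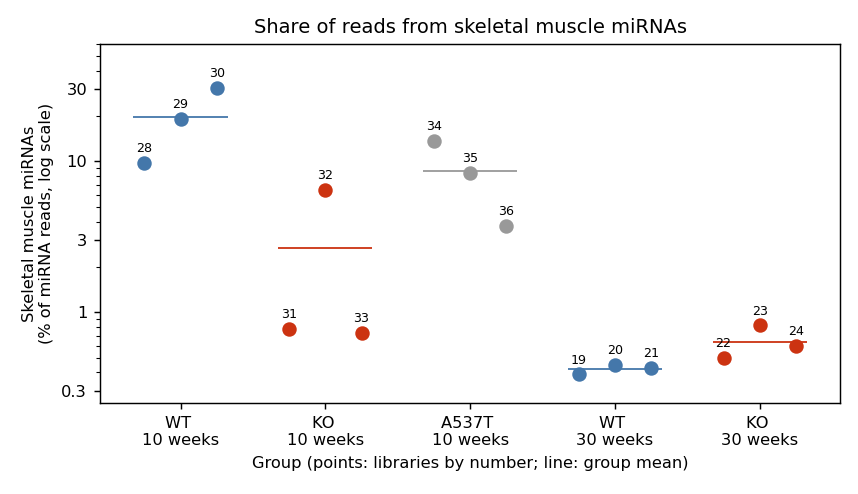
Share of miRNA reads from the skeletal muscle list (vertical axis, percent, log scale) in each library, numbered and grouped by line and age, with a line at the group mean. The WT libraries of 10 weeks run from 9.74% to 30.7%, above the KO libraries of 10 weeks at 0.736% to 6.51%, and the 6 libraries of 30 weeks reach at most 0.821%.

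Of the 18 entries on the skeletal muscle list, 8 passed the filter and 5 had no read. All 8 were lower in KO at an unadjusted p under 0.05 (against 11.4% of all miRNAs), 7 with no overlap between groups (87.5%, against 15.3% over all miRNAs). Their median log2 fold change was -3.83, against 0.05 over all 561 miRNAs. MiR-1a-3p, the most abundant muscle miRNA, had normalised counts of 983259, 2669237 and 5540987 in WT libraries 28, 29 and 30 and of 94358, 735508 and 85537 in KO libraries 31, 32 and 33. KO was lower by a log2 fold change of -3.75 ± 0.95 (SE; limma adjusted p = 0.213). MiR-206-3p, which is largely particular to skeletal muscle, was at 23496, 68217 and 70555 in WT and at 382, 17704 and 308 in KO, in the same order of libraries. KO libraries 31 and 33 were thus both far below library 32, which came close to WT library 28. The log2 fold change of miR-206-3p was -5.24 ± 1.49 (SE; limma adjusted p = 0.213), and -7.14 without KO library 32. MiR-133b-3p, from the same locus, was at 20377, 44737 and 36450 in WT and 1726, 13298 and 1523 in KO, a log2 fold change of -3.30. MiR-499-5p ran from 229 to 2145 in WT and from 7.31 to 140 in KO, and miR-208b-3p from 29.8 to 169 in WT and from 0.989, the value of 1 read, to 20.4 in KO. Both sit in slow myosin genes, and both followed the order of the muscle share in the WT libraries. The exception to the separation was miR-1a-1-5p, the minor arm of a miR-1a hairpin, for which KO library 32 at 233 lay above WT library 30 at 153.

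Setting the skeletal muscle miRNAs aside left the other fold changes almost where they were. Each fold change was fitted by itself, so the removal could move the others only through the scaling. After removal and renewed scaling, 553 miRNAs were tested, 90 had an unadjusted limma p under 0.05 and 0 an adjusted p under 0.05. The median log2 fold change was 0.04, and miR-181a-2-3p stayed at -3.61 and miR-378a-5p at -2.06. Holding the log2 share of muscle reads equal in the fit was a different matter. With that share as a covariate, 1 of 553 miRNAs had an unadjusted p under 0.05 and 0 an adjusted one, on 3 residual degrees of freedom. That 1 was miR-34c-3p, lower in KO at -1.33, which was named after its values were seen. The share and the genotype moved together in these 6 libraries, so the 2 cannot be told apart.

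**Figure D3:**
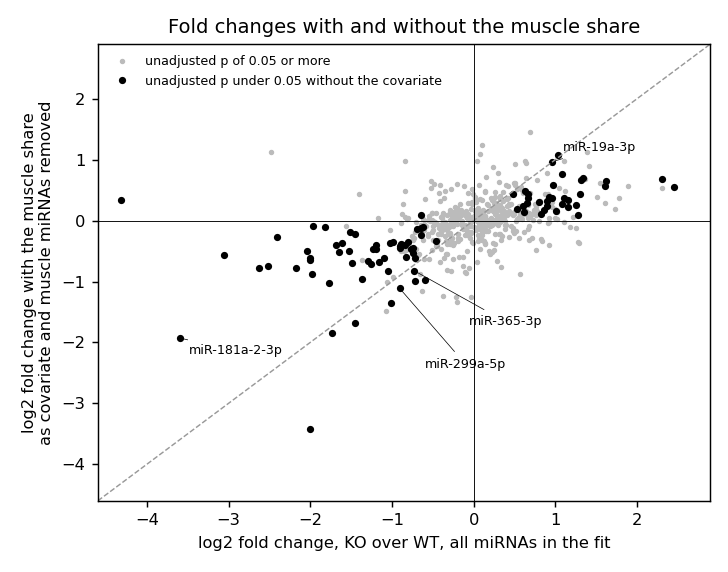
Log2 fold change of KO over WT with the log2 share of skeletal muscle reads as a covariate and muscle miRNAs removed (vertical axis) against that of the fit without the covariate (horizontal axis), for miRNAs in both fits, with equality dashed. MiR-365-3p, miR-299a-5p and miR-19a-3p lie near the dashed line, at -0.82, -1.11 and 0.97 on the vertical axis, while miR-181a-2-3p moves from -3.60 to -1.93. Their standard errors with the covariate are 0.36, 0.49, 0.52 and 1.15 in that order, each with a limma adjusted p of 0.999.

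The miR-378 group, which is abundant in muscle, was lower in KO in step with the muscle share. The list of muscle-enriched miRNAs that other cells also make held 8 entries, all measured, of which 6 were lower at an unadjusted p under 0.05 (against 11.4% of all miRNAs) and without overlap (75.0%, against 15.3%), with a median log2 fold change of -1.59. MiR-378a-3p, the most abundant of them, was at 110906, 239258 and 282715 in WT libraries 28, 29 and 30 and at 70353, 91147 and 41222 in KO libraries 31, 32 and 33. The other arm, miR-378a-5p, was at 1829, 3571 and 5521 in WT and at 718, 1274 and 559 in KO. For both arms WT library 28 was the nearest to the KO libraries and KO library 32 the nearest to the WT libraries. The log2 fold changes were -1.61 ± 0.43 (SE) for miR-378a-3p and -2.04 ± 0.47 (SE) for miR-378a-5p, each with a limma adjusted p of 0.213. MiR-378b, miR-378c and miR-378d, whose sequences are printed above, had log2 fold changes of -1.96, -1.82 and -1.45. These near-identical sequences can divide each other's reads in counting, so they are not independent measurements. With the muscle share as covariate the log2 fold changes of the 3 were -0.08, -0.11 and -0.23.

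Outside the muscle lists, miR-181a-2-3p had the smallest p of all miRNAs. It was at 165, 460 and 1416 in WT libraries 28, 29 and 30 and at 38.2, 49.8 and 29.7 in KO libraries 31, 32 and 33. The KO libraries were close together and the WT libraries were spread in the order of their muscle share. The log2 fold change was -3.60, with a 95% interval of -5.30 to -1.90 and a limma adjusted p of 0.213, while DESeq2 gave an adjusted p of 1.4e-06. The main product of the same hairpin overlapped between the groups. MiR-181a-5p, which a second hairpin also makes, was at 16519, 29382 and 43447 in WT and at 17777, 19105 and 17189 in KO, with overlap through WT library 28. Without that library, where 16.2% of all miRNAs passed, its log2 fold change was -0.99 (limma adjusted p = 0.0416). The minor arm of that second hairpin, miR-181a-1-3p, was named after its values were seen. It was at 272, 356 and 305 in WT and 294, 281 and 257 in KO, a log2 fold change of -0.16 ± 0.21 (SE). Thus the groups were apart for 1 of the 2 minor arms and overlapped for the other.

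For miR-365-3p and miR-299a-5p the libraries of a group lay close together. MiR-365-3p was at 3490, 3598 and 3854 in WT libraries 28, 29 and 30 and at 2201, 2047 and 2380 in KO libraries 31, 32 and 33. The muscle share of these 3 WT libraries ran from 9.74% to 30.7%, and share and genotype cannot be told apart here. Its log2 fold change was -0.72 ± 0.17 (SE; limma adjusted p = 0.213). With the muscle share as covariate it was -0.82 ± 0.36 (SE; limma adjusted p = 0.999). The 5p arms of its 2 hairpins were scarcer: miR-365-2-5p ran from 33.5 to 69.8 in WT and from 14.8 to 30.1 in KO, whereas miR-365-1-5p, at 104 to 223 in WT and 74.2 to 117 in KO, overlapped. MiR-299a-5p, from the imprinted Dlk1-Dio3 cluster, was at 175, 145 and 125 in WT and 76.4, 77.0 and 81.1 in KO. Here WT library 28, with the least muscle, was the highest. The log2 fold change was -0.90 ± 0.23 (SE; limma adjusted p = 0.213), and -1.11 ± 0.49 (SE; limma adjusted p = 0.999) with the covariate. The other arm, miR-299a-3p, was at 316 to 376 in WT and 238 to 282 in KO, a log2 fold change of -0.39 with no overlap.

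For 4 of the 5 other named miRNAs that were lower in KO, WT library 30 was the highest of the 6. MiR-149-5p, from an intron of the glypican gene Gpc1, was at 4490, 7740 and 21433 in WT libraries 28, 29 and 30 and at 1861, 2999 and 2095 in KO libraries 31, 32 and 33. MiR-504-5p, which is known to act on p53, was at 157, 246 and 720 in WT and 56.9, 99.7 and 74.2 in KO. In both, library 30 alone was far above the other 5 libraries, and the log2 fold changes were each -2.00 (SE 0.55 and 0.56). MiR-493-5p and miR-1249-3p were at 87.9 to 250 and 150 to 308 in WT and at 54.4 to 62.3 and 71.5 to 101 in KO, log2 fold changes of -1.37 and -1.15. MiR-664-3p, whose hairpin lies within a small nucleolar RNA gene, Snora36b, was at 663 to 943 in WT and 450 to 510 in KO. The log2 fold change was -0.72, and -0.61 ± 0.44 (SE) with the muscle share as covariate. WT library 29 was the highest, and the other arm, miR-664-5p, overlapped. The limma adjusted p was 0.213 for each of the 5.

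MiR-19a-3p, miR-19b-3p and miR-17-5p, named for groups that do not overlap, lay above WT in all 3 KO libraries. The miR-17-92 transcript, known to promote proliferation, encodes all 3, but miR-19b-3p also comes from another locus, Mir19b-2 on chromosome X. MiR-19a-3p was at 84.9, 87.9 and 72.2 in WT libraries 28, 29 and 30 and at 188, 165 and 130 in KO libraries 31, 32 and 33. The WT libraries lay close together and all below the KO libraries. The log2 fold change was 0.96 ± 0.24 (SE; limma adjusted p = 0.213). With the muscle share as covariate it was 0.97 ± 0.52 (SE; limma adjusted p = 0.999). MiR-19b-3p, which shares its seed, ran from 287 to 683 in WT and from 795 to 1066 in KO, a log2 fold change of 1.09 that came to 0.27 with the covariate. MiR-17-5p of the same transcript was at 2000, 2022 and 1459 in WT and 2729, 2478 and 3048 in KO, with a log2 fold change of 0.60 (limma adjusted p = 0.257). The cluster and its paralogues had 20 measured entries, 12 with positive and 8 with negative log2 fold changes and a median of 0.23. Of these, 4 were higher (20%) and 2 lower (10%) without overlap, against 15.3% each way over all miRNAs. At an unadjusted p under 0.05, 3 were higher and 2 lower, against 5.88% and 11.4% of all miRNAs. The 2 lower ones were miR-20b-5p, at no less than 232 in WT and at 138 to 205 in KO, and miR-106a-5p, at 81.9 to 153 in WT and 68.3 to 75.6 in KO. Both were named after their values were seen, come from the paralogous cluster on the X chromosome, and share the seed of miR-17-5p.

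The miR-10 pair, encoded in the Hox clusters, was also higher. MiR-10a-5p was at 254069, 187311 and 152345 in WT libraries 28, 29 and 30 and at 371616, 276686 and 396576 in KO libraries 31, 32 and 33. MiR-10b-5p was at 181448, 115330 and 120635 in WT and 266556, 197612 and 286229 in KO. KO library 32 was the lowest KO library for both and came near WT library 28. The log2 fold changes were 0.83 ± 0.26 (SE; limma adjusted p = 0.225) for miR-10a-5p and 0.86 ± 0.25 (SE; limma adjusted p = 0.213) for miR-10b-5p, and the minor arms miR-10a-3p and miR-10b-3p followed at 0.89 and 0.53. With the covariate the 2 main arms were at 0.11 and 0.17. The sequences above differ by 1 base, so reads with an error there could pass from one to the other. Among the 10 measured Hox cluster entries, 4 were higher and 3 lower at an unadjusted p under 0.05, against 5.88% and 11.4% of all miRNAs. The 3 lower ones were miR-196a-5p, at 4892 to 6948 in WT and 3260 to 4371 in KO, and both arms of miR-615, which were named after their values were seen.

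MiR-375-3p, a miRNA of secretory and neuroendocrine epithelium, was at 34444, 37331 and 21036 in WT libraries 28, 29 and 30 and at 60538, 45707 and 63350 in KO libraries 31, 32 and 33. The log2 fold change was 0.90 ± 0.27 (SE; limma adjusted p = 0.225). MiR-34a-5p, a target of p53, was at 3872, 4153 and 1727 in WT and 6061, 6692 and 6562 in KO. Its KO libraries were tightly grouped. The log2 fold change of 1.09 ± 0.35 (SE; limma adjusted p = 0.235) was 0.76 ± 0.66 (SE; limma adjusted p = 0.999) with the covariate. MiR-146a-5p, which NF-κB induces, was at 23435, 23070 and 15271 in WT and 33259, 31008 and 32216 in KO, a log2 fold change of 0.67 (limma adjusted p = 0.235). For these 3 miRNAs WT library 30, with the most muscle, was the lowest of the 6. MiR-671-5p had a log2 fold change of 0.93 (limma adjusted p = 0.242), and 0.385 with the covariate. Its other arm, miR-671-3p, had the opposite sign, at -0.83 (limma adjusted p = 0.401).

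**Figure D4:**
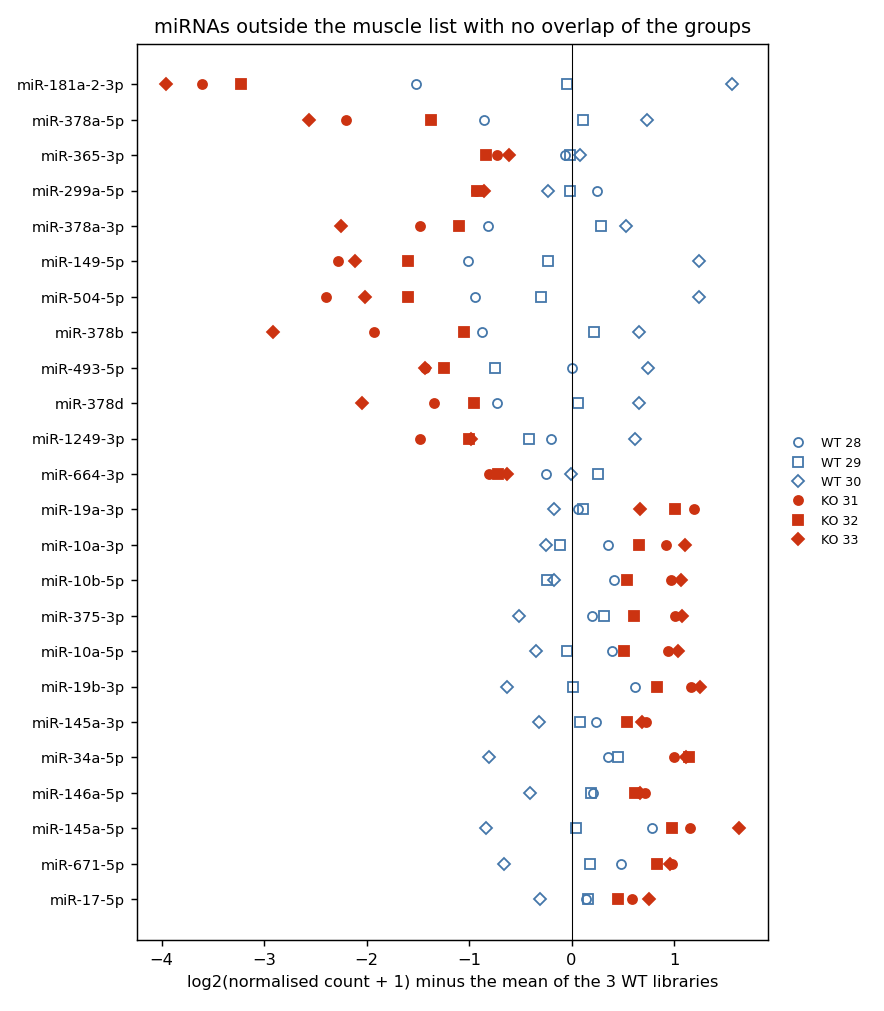
Log2(normalised count + 1) of the 12 lower and 12 higher named miRNAs outside the skeletal muscle list, less the mean of the 3 WT libraries (horizontal axis), with WT libraries as open blue and KO libraries as filled red symbols. The miRNAs were chosen for groups that do not overlap. WT library 28 is the WT library nearest to KO for miR-181a-2-3p, while the WT libraries lie close together for miR-365-3p and miR-19a-3p.

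The tissue was checked against lists of cell type markers, which also show what moved with genotype. Stroma and smooth muscle miRNAs made up 30.8%, 15.8% and 7.34% of the reads in WT libraries 28, 29 and 30 and 36.5%, 30.98% and 36.6% in KO libraries 31, 32 and 33. Library 28 was level with library 32 here. All 10 entries had positive log2 fold changes, 8 without overlap between the groups (80.0%, against 15.3% over all miRNAs). The list holds both arms of miR-143, miR-145a and miR-214, so its entries are not independent. At an unadjusted limma p under 0.05, 4 were higher, against 5.88% of all miRNAs. The median of 0.73 came to 0.19 with the muscle share as covariate. MiR-143-3p, the most abundant miRNA of the tissue, was at 3666078, 2499632 and 1282602 in WT and 5039612, 3939291 and 4793878 in KO, a log2 fold change of 1.006 ± 0.38 (SE; limma adjusted p = 0.28). MiR-145a-5p and miR-145a-3p, from the same transcript, had log2 fold changes of 1.26 and 0.65 (limma adjusted p = 0.235 and 0.225). Epithelial miRNAs, at 5.29% to 7.87% of the reads in WT and 6.32% to 6.54% in KO, had a median log2 fold change of -0.09 (0.11 with libraries scaled to their totals), 9 positive and 11 negative. At an unadjusted limma p under 0.05, 2 of 20 were higher and 0 lower, against 5.88% and 11.4% of all miRNAs. MiR-200b-3p, a guardian of the epithelial state, was at 201014 to 528447 in WT and 241397 to 296862 in KO, so that all KO values fell inside the WT range. Without WT library 28, its lowest, the log2 fold change was -0.97 (limma adjusted p = 0.0275), in a fit where 16.2% of all miRNAs passed.

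The red cell, white blood cell and endothelial lists had medians of 0.12, 0.29 and -0.24. White blood cell miRNAs took 0.105% to 0.254% of the reads in WT and 0.285% to 0.289% in KO, so the groups did not overlap. Most of this share was miR-146a-5p, whose counts are given above and did not overlap either. The list summed to 33283 normalised counts in WT library 28 and to 42986, 40718 and 42290 in KO libraries 31, 32 and 33. With miR-146a-5p left out of these sums, WT library 28 lay within the range of the KO libraries. Of the 10 entries, 4 were higher (40%) and 2 lower (20%) without overlap, against 15.3% each way over all miRNAs. At an unadjusted p under 0.05, 1 was higher and 1 lower. MiR-342-3p, of lymphocytes, was at 3593, 2834 and 873 in WT libraries 28, 29 and 30 and at 3875, 4029 and 4240 in KO libraries 31, 32 and 33, a log2 fold change of 0.96 ± 0.50 (SE). Red cell miRNAs had 3 positive and 3 negative entries. MiR-451a and miR-144-5p, from the same red cell transcript, had log2 fold changes of 0.63 and 0.66, but miR-486a-3p, which muscle also makes, had -1.23. Endothelial miR-126a-3p was at 236249 to 280981 in WT and 176235 to 208305 in KO, a log2 fold change of -0.46 ± 0.18 (SE; limma adjusted p = 0.28). The liver list had 1 measured entry, miR-122-5p, at 16.6 to 27.4 in WT and 35.1 to 47.1 in KO, a log2 fold change of 0.81 with no overlap (limma adjusted p = 0.28).

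Among neural miRNAs, the spread among the WT libraries was wide. MiR-9-5p, of neurons and their precursors, was at 14219, 4072 and 3193 in WT libraries 28, 29 and 30 and at 8515, 8906 and 8802 in KO libraries 31, 32 and 33. The KO libraries were alike and fell inside the WT range. The groups overlapped through WT library 28 alone. Without it the log2 fold change of miR-9-5p was 1.28 (limma adjusted p = 0.0275), in a fit where 16.2% of all miRNAs passed. MiR-7b-5p showed the same arrangement, at 8227, 2005 and 1636 in WT and 5653, 7476 and 6568 in KO. MiR-128-3p went the other way, at 2584, 5097 and 43825 in WT and 1120, 1686 and 1620 in KO, without overlap. Its log2 fold change of -2.52 came to -1.32 without library 30. Of the 13 measured neural entries, 11 had positive and 2 negative log2 fold changes, with a median of 0.84 that came to 0.03 with the muscle share as covariate.

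Among clusters and families, the list for the imprinted Dlk1-Dio3 cluster on chromosome 12 had 55 measured entries. It does not hold every miRNA of that domain: miR-493-5p (chr12:109580243-109580261), near Mir127 (chr12:109592888-109592909), is not on it. Of the 55, 16 were lower without overlap (29.1%, against 15.3% over all miRNAs) and 0 higher without overlap (against 15.3%). At an unadjusted limma p under 0.05, 9 were lower and 0 higher, against 11.4% and 5.88% of all miRNAs. Without WT library 28, where 16.2% of all miRNAs passed, miR-154-3p (2.32) and miR-376b-3p (0.86), named after their values were seen, passed as higher. MiR-411-5p (-1.06) was then the only entry of the list that passed as lower. MiR-411-5p was at 3070, 3353 and 5519 in WT libraries 28, 29 and 30 and at 2151, 2206 and 1854 in KO libraries 31, 32 and 33, a log2 fold change of -0.90 ± 0.26 (SE; limma adjusted p = 0.213). The median over the list was -0.18 and turned to 0.02 when libraries were scaled to their totals, a scaling that moved the median of all miRNAs from 0.05 to 0.24. The cluster is made from 1 domain, so its members are not independent. The rodent families in an intron of Sfmbt2 had 18 measured entries, all with positive log2 fold changes and 5 higher without overlap (27.8%, against 15.3% over all miRNAs), with a median of 0.66, or 0.01 with the muscle share as covariate. MiR-669c-5p, the most abundant of them, was at 316, 196 and 87.5 in WT and 418, 368 and 356 in KO.

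The other families differed in direction. Their counts at an unadjusted limma p under 0.05 stand beside 5.88% higher and 11.4% lower over all miRNAs. The let-7 family, both arms counted, had 13 positive and 8 negative entries of 21, with 1 at an unadjusted p under 0.05 and a median log2 fold change of 0.11. The 10 measured entries with the let-7 seed GAGGUAG had 5 positive and 5 negative log2 fold changes. Let-7f-5p was at 429594 to 676795 in WT and 395951 to 490347 in KO, with overlap. The miR-30 family had 11 measured entries, and the 1 at an unadjusted p under 0.05 was miR-30d-5p, at 124252, 199663 and 322956 in WT libraries 28, 29 and 30 and 107527, 107504 and 120432 in KO libraries 31, 32 and 33. The miR-29 family had 0 of 7 at an unadjusted p under 0.05, by limma, and the miR-15/16 family 1 higher and 1 lower of 12. The miR-34 family, with its relatives, had 6 positive entries of 7 and a median of 0.68, with 3 higher (42.9%) and 0 lower without overlap, against 15.3% each way over all miRNAs. Both arms of miR-34a were higher at an unadjusted p under 0.05. The miR-181 family split, with miR-181b-5p at -0.69 and a median of -0.16 over 7 entries that turned to 0.04 with scaling to totals.

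**Figure D5:**
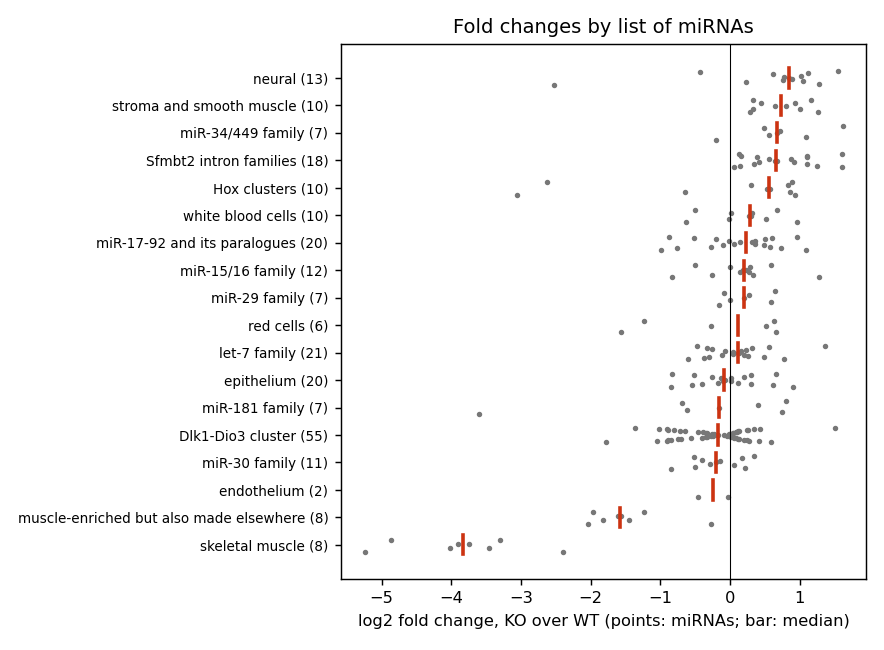
Log2 fold change of KO over WT (horizontal axis) for the measured miRNAs of each list, 1 point per miRNA, with a red bar at the median and the number measured in brackets. The skeletal muscle list has a median of -3.83 and the muscle-enriched list of -1.59, while the stroma and smooth muscle list, at 0.73, has no point below 0.

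Of the 10 most abundant miRNAs, 2 were without overlap between the groups, miR-143-3p above and miR-1a-3p below, against 15.3% each way over all miRNAs. MiR-148a-3p was at 1075852, 2427027 and 2867811 in WT libraries 28, 29 and 30 and at 1847530, 1582167 and 1663285 in KO libraries 31, 32 and 33. MiR-21a-5p, which is raised in many tumours, was at 512943, 1075349 and 911730 in WT and 654658, 598675 and 510629 in KO. In both, the values of the groups overlapped and library 28 lay below the other WT libraries. For miR-148a-3p the overlap came through library 28 alone. Without it the log2 fold change was -0.64 (limma adjusted p = 0.0416), in a fit where 16.2% of all miRNAs passed. The log2 fold changes of the 8 that overlapped ran from -0.51 for miR-200b-3p to 0.16 for let-7i-5p.

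The effect of the knockout was then compared between ages through differences within each table, because the tables of 10 and 30 weeks had been normalised separately. Of 519 miRNAs tested in 12 libraries, 0 (0%) had a limma adjusted p under 0.05 for the difference between ages and 70 (13.5%) an unadjusted one. EdgeR called 0, with 83 at an unadjusted p under 0.05, and DESeq2 22. Without WT library 19 of 30 weeks 60 passed in limma, without WT library 28 of 10 weeks 12 and without KO library 32 of 10 weeks 6. MiR-181a-2-3p had a log2 fold change of -3.60 at 10 weeks and 0.33 at 30 weeks, a difference of -3.93 ± 0.88 (SE; limma adjusted p = 0.153). At 30 weeks it was at 60.1 to 125 in WT and 85.3 to 130 in KO, with overlap. MiR-1a-3p had -3.75 at 10 weeks and 0.94 at 30 weeks, a difference of -4.70 ± 1.09 (SE; limma adjusted p = 0.153). By contrast miR-365-3p had -0.72 and -0.67, miR-299a-5p -0.90 and -0.99, and miR-19a-3p 0.96 and 0.87. Their differences between ages were -0.05 ± 0.30, 0.09 ± 0.41 and 0.09 ± 0.40 (SE), and a p that misses the threshold does not show that the ages were alike. MiR-10a-5p had 0.83 and 1.26 and miR-10b-5p 0.86 and 1.46. MiR-34a-5p had 1.09 at 10 weeks and -0.02 at 30 weeks, a difference of 1.11 ± 0.43 (SE; limma adjusted p = 0.318).

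The A537T libraries of 10 weeks were set against the same 3 WT libraries, so the comparisons share their controls and are given side by side without a test. One of the A537T libraries, library 35, held 655455 reads. The log2 fold change over WT was -2.72 in A537T and -3.60 in KO for miR-181a-2-3p, and -1.39 and -3.75 for miR-1a-3p. For miR-365-3p it was 0.02 and -0.72, for miR-299a-5p -0.28 and -0.90, and for miR-19a-3p 0.23 and 0.96. For miR-10a-5p it was -0.54 and 0.83, for miR-10b-5p -0.40 and 0.86, and for miR-375-3p -1.51 and 0.90, with opposite signs in the 2 lines.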

How the data were processed

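Small RNA libraries (Illumina TruSeq, NovaSeq) were made from ventral and lateral prostate lobes. The authors merged read pairs with BBMerge, counted miRNAs with mirDeep2 on GRCm38 and summed identical miRNAs. The deposited values are a signal, reads over a DESeq2 size factor set within each table of 6 libraries (normalised counts). The smallest value above 0 in a column was taken as 1 read to recover the reads, and 100% of values came out within 0.001 of a whole number. The authors' own comparisons, shrunken fold changes with s-values, were not used. Columns carry a library number but no genotype or replicate number, and groups were taken from the table names. 0 columns were left unmatched.

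Differences were tested with limma 3.58.1 in R 4.3.3, on log2(normalised count + 1) with the trend option, where the mean was at least 10. This scale understates changes of low miRNAs. P-values were two-sided and adjusted by Benjamini-Hochberg over all miRNAs tested at 0.05. Fits that left 2 samples in a group assumed that they vary like the others. EdgeR 4.0.16 and DESeq2 1.42.0 were run on recovered reads. DESeq2 left 2 adjusted p-values undefined. Scripts were tested on simulated data. The 95% intervals of shares (Wilson) reflect counting error alone. The study describes 3 mice per line and age as biological replicates, but the columns do not say which mouse a library came from.

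Named were up to 12 higher and 12 lower miRNAs by smallest p with a mean of at least 100, no overlap of groups and no place on the skeletal muscle list, then every measured entry of that list, the 10 most abundant miRNAs, up to 4 abundant ones per list and the other arms of the first. Members and lists were chosen with earlier results of these data known. Mature sequences were found in RefSeq for 82 of 104 named miRNAs. Hairpin contexts are from GENCODE on the same build.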

Additional observations from a re-analysis of the deposited data

How the results depend on the processing

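No paired analysis was possible because the columns carry no replicate numbers. The count of 0 miRNAs past an adjusted p of 0.05 became 83 with limma array weights and 30 with DESeq2, and ran from 0 to 91 over the leave-one-out fits. It stayed at 0 with a pseudocount of 10, without a filter, at a mean of at least 100, with scaling to totals, without the variance trend, with the muscle miRNAs removed or as a covariate and with edgeR under both scalings. The 97 at an unadjusted p under 0.05 became 153 without a filter and 61 at a mean of at least 100, where more or fewer miRNAs were tested, 192 with array weights and 1 with the muscle share as covariate, and ran from 42 to 215 over the leave-one-out fits. Without KO library 31, 44 were left, without KO library 32, 61, and without KO library 33, 42. The cause was not tested. For the difference between ages, 0 became 217 with array weights and 22 with DESeq2 and ran from 0 to 60 over the leave-one-out fits. The difference in muscle share ran from -22.2 to -11.7 percentage points as libraries were left out, and no alternative changed its sign. Signs turned in fold changes that did not pass with all 6 libraries: with scaling to totals, miR-99a-5p at 0.0071 and miR-664-5p at 0.0015. With the covariate they were miR-148a-3p at 0.20, let-7f-5p at 0.086, miR-200b-3p at 0.016, miR-181a-5p at 0.029, miR-493-3p at 0.28, miR-664-5p at 0.023 and miR-9-5p at -0.18. Over the leave-one-out fits let-7g-5p ran from -0.095 (without library 28) to 0.13, miR-148a-3p from -0.64 to 0.068 and miR-26a-5p from -0.48 to 0.0079 (both without library 30). Of these, miR-148a-3p, miR-200b-3p, miR-181a-5p and miR-9-5p passed in limma without library 28, at -0.64, -0.97, -0.99 and 1.28. In that fit 16.2% of all miRNAs passed. With 3 libraries a group and 1 or 2 of them deciding the count, single fold changes are imprecise, and low miRNAs in the KO libraries rest on few reads.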

Other observations

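Values outside the named set, chosen after they were seen, included miRNAs that tracked single libraries. MiR-653-5p was at 46.9, 127 and 237 in WT libraries 28, 29 and 30 and at 4.06, 35.1 and 0 in KO libraries 31, 32 and 33, which gave -4.32 ± 1.27 (SE) on the log2 scale, and 0.33 with the muscle share as covariate. MiR-615-3p was at 364, 439 and 4387 in WT and 110, 191 and 139 in KO. Library 30 was far above the other 5, as for miR-128-3p.

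MiR-135a-5p and miR-490-3p had large positive fold changes, with WT library 30 the lowest of the 6. MiR-135a-5p was at 800, 394 and 42.6 in WT and at 1512, 1083 and 1394 in KO, a log2 fold change of 2.46 ± 0.98 (SE; limma adjusted p = 0.28). MiR-490-3p was at 174, 57.1 and 8.28 in WT and 244, 218 and 216 in KO. In both, the order of the WT libraries was the reverse of that by muscle share. With the share as covariate the log2 fold changes were 0.54 and 0.69.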
